A study of Oryza sativa Japonica Group with 3 samples.

Results

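The metal ion transporters of rice comprise 32 of the 35664 genes of the deposited expression table. They were taken by the words of the table's own gene descriptions (zinc/iron permease, zinc, iron, copper or metal transporter, NRAMP, heavy metal ATPase, yellow stripe and cation efflux), with 3 iron-related genes set aside. Expression values played no part in that rule. By description and symbol, 12 of the genes belong to the ZIP family, 5 to the NRAMP family, 5 to the P1B-type heavy metal ATPases (HMA), 6 to the copper transporters (COPT), 2 to the yellow stripe-like family (YSL) and 2 to the cation efflux family. One of the 5 NRAMP genes, EIN2, is a protein of ethylene signalling with an NRAMP-like domain and entered by that word.

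Roots take up zinc, iron, manganese and copper as ions or as chelates, and pass them from the epidermis to the xylem. ZIP, NRAMP and COPT proteins bring metal into the cytosol, and YSL proteins carry metals bound to nicotianamine and related chelators. P1B ATPases pump metal out of the cytosol with energy from ATP, and cation efflux proteins move it into vacuoles or vesicles or out of the cell. Cadmium, which is toxic, enters and moves through several of the same proteins.

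The series compared nuclear RNA with cellular poly(A) RNA of the last 1 cm of the root of Nipponbare seedlings aged 7 days. The sample titles of both pools name them as control. Nuclear RNA came from the transgenic line p35S:OsNTF2, whose tagged nuclei were captured on streptavidin beads, and its ribosomal RNA was degraded before sequencing. Poly(A) RNA came from a second transgenic line, p35S:HF-FLAG-OsRPL18, by capture of polyadenylated RNA on oligo dT. Both transgenes are driven by the 35S promoter, which is active in most cell types, so the captured nuclei were not drawn from 1 root cell type. Capture on oligo dT does not depend on the transgene, so poly(A) RNA could come from any cell of the root tip. All plants received 1% sucrose in Murashige and Skoog (MS) medium. The strength of that medium was 0.5 in the sample labels of the nuclear pool and 1 in those of the poly(A) pool, while the series design names a single strength of 1 for both. RNA pool, transgenic line, RNA selection and the labelled medium strength changed together and cannot be told apart. Each pool had 4 libraries, which the design calls bioreplicates. In whole root tips, fewer cells of a type and less RNA per cell cannot be told apart either.

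Levels are in reads per kilobase of gene, scaled to sequencing depth (RPKM), a unit that allows levels of different genes to be set side by side. The nuclear libraries held 1073588 to 2290278 reads on the listed genes and the poly(A) libraries 19430872 to 29974184. A single read on 1 kb of gene thus counted as 0.436 to 0.930 RPKM in a nuclear library, against 0.0333 to 0.0514 RPKM in a poly(A) library. Pearson's correlation over the 26928 tested genes was 0.854 to 0.891 among nuclear libraries, 0.991 to 0.995 among poly(A) libraries and 0.619 to 0.691 between the pools. Among the root markers, the root-specific gene RCc3 (OS02G0662000) averaged 698.3 ± 137.5 RPKM in nuclear RNA, against 1799 ± 134.2 RPKM in poly(A) RNA (SD, n = 4 each). The silicon efflux transporter LSI2 averaged 121.5 ± 39.5 RPKM in nuclear RNA, against 88.9 ± 7.40 RPKM in poly(A) RNA. The influx channel LSI1 averaged 69.3 RPKM in nuclear RNA, against 213.5 RPKM in poly(A) RNA. The stele regulator SHR1 had 34.4 RPKM in nuclear RNA, against 7.06 RPKM in poly(A) RNA, and the quiescent centre gene QHB 1.25 RPKM in nuclear RNA, against 2.03 RPKM in poly(A) RNA. Of 13 leaf genes for chlorophyll-binding proteins and the small subunit of Rubisco, 4 were at 0 in every library, and their summed level was 16.5 to 25.2 RPKM in nuclear libraries and 8.92 to 13.6 RPKM in poly(A) libraries. No gene of the 30 prolamins, the seed storage proteins, averaged above 2.54 RPKM in nuclear RNA or 0.275 RPKM in poly(A) RNA. Of all 50 genes described as glutelin or prolamin 37 were at 0 in every library, and their summed level, 251.5 to 417.8 RPKM in nuclear libraries and 266.7 to 294.8 RPKM in poly(A) libraries, came mostly from genes described as glutelin family proteins, such as AGP3 at 163.7 ± 51.4 RPKM in nuclear RNA, against 55.3 ± 7.46 RPKM in poly(A) RNA. The part of other cell types in the results was not tested.

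Most of the metal transporter genes were expressed in both pools, and more of them were higher than lower in nuclear RNA. A gene was tested where its mean reached 1 RPKM in either pool, and differences are nuclear minus poly(A) on the log2(RPKM + 1) scale, which understates the change of genes with low levels. Of the 32 genes 27 were tested, and 25 of those had a mean of at least 1 RPKM in both pools. At an adjusted p under 0.05 (limma, Benjamini-Hochberg over all tested genes), 13 of the 27 were higher in nuclear RNA, which is 48.1% against 33.1% of all tested genes. Only 3 were lower, which is 11.1% against 30.0% of all tested genes, and 11 were not called. Their median difference was 0.59, against 0.08 over all tested genes. All 4 nuclear libraries lay above all 4 poly(A) libraries for 14 genes and below them for 4, so that the pools did not overlap for 66.7% of the tested transporters, against 61.1% of all tested genes. The summed level of the transporters was 413.6 ± 21.1 RPKM in nuclear RNA, against 245.4 ± 4.38 RPKM in poly(A) RNA (SD, n = 4 each).

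**Figure D1:**
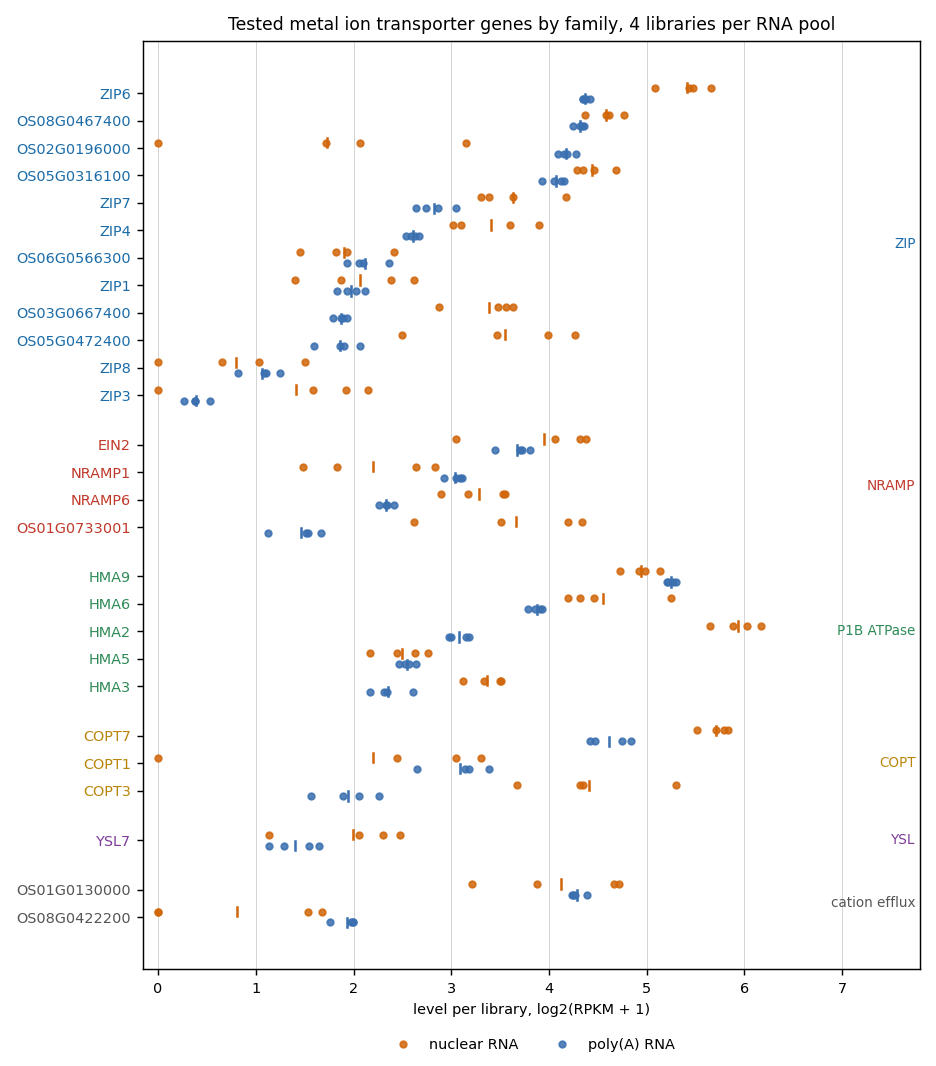
Level of each of the 27 tested metal ion transporter genes, as log2(RPKM + 1), with 1 point per library (nuclear RNA in orange, poly(A) RNA in blue) and a short vertical line at the mean of 4 libraries. The nuclear points of HMA2, COPT3 and OS01G0733001 lie to the right of all their poly(A) points, those of OS02G0196000 to the left, and nuclear points spread more widely than poly(A) points for most genes.

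Nuclear libraries were shallower and their values scattered more. The coefficient of variation among the 4 libraries had a median of 37.0% in nuclear RNA and 8.02% in poly(A) RNA over the 25 genes above 1 RPKM in both pools. A tested transporter had between 5 and 640 reads over all nuclear libraries, with a median of 112, and between 48 and 13828 reads over all poly(A) libraries. Under 30 nuclear reads stood behind 6 of the tested genes. The order of the genes by level was only partly shared by the pools (Spearman's rho 0.66 over the 27 genes, given as a description). HMA2 ranked 1 among the transporters in nuclear RNA and 11 in poly(A) RNA, where HMA9 ranked 1.

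The P1B ATPases held the largest difference of all the transporters, with 3 of 5 genes higher in nuclear RNA, none lower and 2 not called. Over all tested genes, 33.1% were higher and 30.0% lower. The families hold few genes, so their counts are descriptions, and no family was tested as a group. HMA2 (OS06G0700700), a plasma membrane pump that carries zinc and cadmium towards the shoot in rice, had 49.3, 58.2, 64.2 and 71.1 RPKM in the nuclear libraries, against 7.91, 7.01, 8.06 and 6.90 RPKM in the poly(A) libraries. The lowest nuclear value was far above the highest poly(A) value. The mean was 60.7 ± 9.26 RPKM in nuclear RNA, against 7.47 ± 0.599 RPKM in poly(A) RNA (SD, n = 4 each). The log2 difference was 2.86 ± 0.15 (SE, adjusted p = 1.66e-06), or 7.24-fold in RPKM + 1. HMA3 (OS07G0232900), which sequesters cadmium in root vacuoles in rice and which the file describes by root-to-shoot cadmium translocation, had 10.3, 10.4, 9.08 and 7.71 RPKM in nuclear libraries, against 4.08, 3.96, 3.49 and 5.09 RPKM in poly(A) libraries. These groups did not overlap, and the log2 difference was 1.01 ± 0.15 (SE, adjusted p = 0.000464).

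The other 3 P1B ATPases differed less. HMA6 (OS02G0172600) had 19.0, 20.9, 17.3 and 37.1 RPKM in nuclear libraries, against 14.2, 14.0, 13.5 and 12.8 RPKM in poly(A) libraries. Nuclear library 4 stood apart from the other nuclear libraries, yet all 4 were above the poly(A) range. The log2 difference of HMA6 was 0.68 ± 0.23 (SE, adjusted p = 0.0283), and leaving out any 1 of the 4 poly(A) libraries took the adjusted p to between 0.0569 and 0.0703. HMA9 (OS06G0665800), a rice pump that exports copper, zinc and other metals, was the most abundant transporter of the poly(A) pool. It had 30.5, 29.4, 34.1 and 25.5 RPKM in nuclear libraries, against 37.4, 38.5, 36.0 and 36.2 RPKM in poly(A) libraries, so all nuclear values were below the poly(A) range. Its log2 difference of -0.31 ± 0.13 did not pass (SE, adjusted p = 0.0645). It did pass without nuclear library 3 (adjusted p = 0.0280) and in 5 other settings, with differences of -0.31 to -0.80 and adjusted p-values of 0.000147 to 0.0447: no filter, a mean RPKM of at least 5, median centring, the length trend taken off and voom on recovered reads. HMA5 (OS04G0556000), which loads copper into the xylem, averaged 4.72 ± 0.982 RPKM in nuclear RNA, against 4.87 ± 0.305 RPKM in poly(A) RNA, with a log2 difference of -0.05 ± 0.15 (SE, adjusted p = 0.788), and of -0.47 with the length trend taken off (adjusted p = 0.0253).

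The balance among these pumps therefore changed with the pool. Within each library, the level of HMA2 was 1.62, 1.98, 1.88 and 2.79 times that of HMA9 in nuclear RNA and 0.211, 0.182, 0.224 and 0.191 times in poly(A) RNA. Against HMA3, the level of HMA2 was 4.77, 5.59, 7.07 and 9.22 times as high in nuclear RNA and 1.94, 1.77, 2.31 and 1.35 times in poly(A) RNA. The ranges of each ratio did not overlap between the pools. These ratios are descriptions, with no test. The length of the HMA2 gene model, recovered from the values, was 1753 nt, and those of the other 4 pumps were 3015 to 3505 nt. Whether the HMA2 model covers the whole gene was not checked here, and the level, rank and ratios of HMA2 rest on that length.

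Of the 12 ZIP genes 6 were higher in nuclear RNA, 1 was lower and 5 were not called, with a median difference of 0.59. The shares over all tested genes were 33.1% higher and 30.0% lower, with a median difference of 0.08. ZIP6 (OS05G0164800), described as a transition metal ion transporter, was the most abundant of them in both pools. Its levels were 49.5, 42.1, 43.4 and 32.9 RPKM in nuclear libraries, against 20.5, 19.4, 19.7 and 19.3 RPKM in poly(A) libraries. The lowest nuclear value was above all poly(A) values, and the log2 difference was 1.04 ± 0.15 (SE, adjusted p = 0.000335).

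Among the ZIP genes called higher, the largest differences belonged to 2 genes of low poly(A) level. OS05G0472400, described as similar to a zinc transporter, had 18.2, 14.8, 10.1 and 4.63 RPKM in nuclear libraries, against 2.02, 2.73, 2.63 and 3.20 RPKM in poly(A) libraries. The nuclear values spread widely but did not reach down to the poly(A) range, and the log2 difference was 1.70 ± 0.36 (SE, adjusted p = 0.00301). OS03G0667400, described as similar to an iron-regulated metal transporter, had 11.4, 10.8, 6.34 and 10.1 RPKM in nuclear libraries, against 2.65, 2.72, 2.83 and 2.45 RPKM in poly(A) libraries. Here too the pools did not overlap, with a log2 difference of 1.51 ± 0.18 (SE, adjusted p = 0.000123). ZIP4 (OS08G0207500), a zinc transporter induced by zinc deficiency in rice, averaged 9.91 ± 3.22 RPKM in nuclear RNA, against 5.09 ± 0.245 RPKM in poly(A) RNA (log2 difference 0.80 ± 0.21, adjusted p = 0.00932). ZIP7 (OS05G0198400), which takes part in zinc transport through vascular tissue in rice, averaged 11.7 ± 3.74 RPKM in nuclear RNA, against 6.13 ± 0.875 RPKM in poly(A) RNA (log2 difference 0.80 ± 0.21, adjusted p = 0.00943). The remaining gene called higher, the zinc/iron permease OS05G0316100, averaged 20.9 ± 2.72 RPKM in nuclear RNA, against 15.8 ± 1.16 RPKM in poly(A) RNA, a log2 difference of 0.38 ± 0.14 (SE, adjusted p = 0.0371). Its adjusted p was 0.0635 without nuclear library 2 and 0.0640 to 0.107 without any 1 of the poly(A) libraries.

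The zinc/iron permease OS02G0196000 went the other way. It had 3.19, 7.86, 2.29 and 0 RPKM in nuclear libraries, against 16.1, 18.3, 16.7 and 17.1 RPKM in poly(A) libraries. The poly(A) values were tight, whereas nuclear library 4 had no read of the gene and the other nuclear libraries stayed well below the poly(A) range. With 34 nuclear reads in all, its log2 difference was -2.44 ± 0.56 (SE, adjusted p = 0.00497), or 5.43-fold lower in RPKM + 1. Without nuclear library 4 the log2 difference was -1.86 (adjusted p = 0.00135). In the same libraries ZIP6 was 15.5, 5.35 and 19.0 times as high in the 3 nuclear libraries that had a read of OS02G0196000, against 1.27, 1.06, 1.18 and 1.13 times in the poly(A) libraries.

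For the remaining ZIP genes the test did not separate the pools. OS08G0467400, a zinc/iron permease, had 23.5, 26.2, 19.7 and 23.0 RPKM in nuclear libraries, against 18.9, 19.6, 19.2 and 18.0 RPKM in poly(A) libraries. All nuclear values were the higher ones, by a small margin, and the log2 difference of 0.27 ± 0.13 did not pass (SE, adjusted p = 0.0971). It did pass without nuclear library 3 (adjusted p = 0.0335) and with RPKM rescaled to an equal sum (0.52, adjusted p = 0.00748). ZIP3 (OS04G0613000), which the file describes by delivery of zinc to developing tissues, had 2.80, 3.44, 2.00 and 0 RPKM in nuclear libraries, against 0.197, 0.440, 0.298 and 0.297 RPKM in poly(A) libraries. It entered the test only through its nuclear level, with 22 nuclear reads, and its log2 difference was 1.03 ± 0.43 (SE, adjusted p = 0.0622). Without nuclear library 4, which had no read of ZIP3, the difference was 1.50 (adjusted p = 0.000115). It also passed with quantile normalization (1.16, adjusted p = 0.0139) and with voom on recovered reads (2.32, adjusted p = 0.00317). ZIP1 (OS01G0972200), OS06G0566300 and ZIP8 (OS07G0232800) averaged 3.42, 2.84 and 0.864 RPKM in nuclear RNA, against 2.94, 3.35 and 1.10 RPKM in poly(A) RNA, with adjusted p-values of 0.763, 0.405 and 0.461. ZIP8 had 7 nuclear reads in all and entered the test only through its poly(A) level.

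Of the 4 tested NRAMP genes 2 were higher in nuclear RNA, 1 was lower and 1 was not called, beside 33.1% higher and 30.0% lower over all tested genes. NRAMP1 (OS07G0258400), a plasma membrane transporter of iron, cadmium and manganese in rice, had 6.12, 5.23, 2.56 and 1.79 RPKM in nuclear libraries, against 6.59, 7.60, 7.25 and 7.53 RPKM in poly(A) libraries. All nuclear values were below the poly(A) range, by a wide margin in libraries 3 and 4. The log2 difference was -0.85 ± 0.29 (SE, adjusted p = 0.0331). That call was lost without nuclear library 3 (adjusted p = 0.0782), without nuclear library 4 (adjusted p = 0.0535) and without any 1 of the poly(A) libraries (adjusted p = 0.0586 to 0.0745). With RPKM rescaled to an equal sum it was lost as well (-0.63, adjusted p = 0.0983).

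NRAMP6 (OS01G0503400), a metal transporter of the same family, had 8.01, 10.7, 6.46 and 10.5 RPKM in nuclear libraries, against 4.02, 4.33, 3.79 and 4.05 RPKM in poly(A) libraries. The pools did not overlap, and the log2 difference was 0.95 ± 0.17 (SE, adjusted p = 0.00128). Its gene model of 5657 nt was the longest of the transporters, and after the trend of level on gene length was taken off each library the difference was 0.01 (adjusted p = 0.960). OS01G0733001, described as similar to NRAMP3, which distributes manganese in rice nodes, had 5.13, 10.4, 17.3 and 19.3 RPKM in nuclear libraries, against 1.90, 1.86, 2.17 and 1.19 RPKM in poly(A) libraries. The lowest nuclear value was above all poly(A) values. From 72 nuclear reads, the log2 difference was 2.20 ± 0.36 (SE, adjusted p = 0.000776), or 4.61-fold in RPKM + 1. Within each library the level of NRAMP6 was 1.31, 2.05, 2.52 and 5.89 times that of NRAMP1 in nuclear RNA and 0.609, 0.569, 0.523 and 0.539 times in poly(A) RNA.

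EIN2 (OS07G0155600) had 19.9, 18.9, 15.7 and 7.28 RPKM in nuclear libraries, against 12.2, 12.9, 12.0 and 9.94 RPKM in poly(A) libraries. Nuclear library 4 was below the poly(A) range and the other nuclear libraries above it, and the log2 difference of 0.28 ± 0.29 did not pass (SE, adjusted p = 0.415). Without nuclear library 4 it was 0.58 (adjusted p = 0.00714). OS03G0607400, described as similar to an NRAMP6 transporter, was not tested and averaged 0.738 ± 1.10 RPKM in nuclear RNA, against 0.259 ± 0.0508 RPKM in poly(A) RNA.

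**Figure D2:**
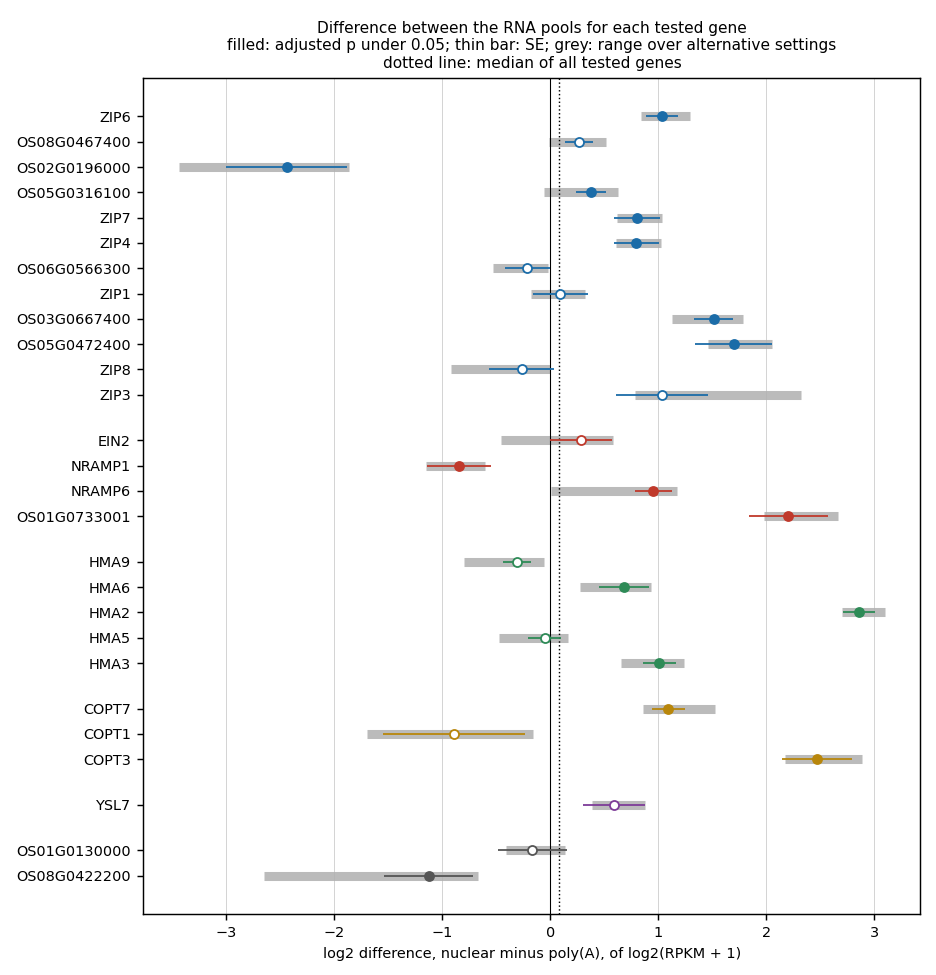
Log2 difference, nuclear minus poly(A), of log2(RPKM + 1) for each tested gene, with a thin bar for the SE, filled points at an adjusted p under 0.05, and a grey band for the range over 17 alternative settings. HMA2 is farthest to the right at 2.86 and OS02G0196000 farthest to the left at -2.44, and the bands of NRAMP6, OS05G0316100, EIN2 and OS08G0467400 reach near 0 or below it.

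Of the 6 copper transporters, 2 were higher in nuclear RNA, 1 was not called and 3 had almost no reads and were not tested. Over all tested genes, 33.1% were higher in nuclear RNA. COPT proteins are small copper channels of the plasma membrane and of internal membranes. COPT7 (OS09G0440700) had 51.5, 44.6, 54.3 and 56.1 RPKM in nuclear libraries, against 21.2, 25.8, 20.4 and 27.5 RPKM in poly(A) libraries. It ranked next to HMA2 in nuclear RNA and next to HMA9 in poly(A) RNA, its pools did not overlap, and the log2 difference was 1.09 ± 0.15 (SE, adjusted p = 0.000253). COPT3 (OS03G0370800) had 38.5, 19.0, 19.3 and 11.8 RPKM in nuclear libraries, against 2.72, 1.96, 3.16 and 3.78 RPKM in poly(A) libraries. Its nuclear values spread widely and all lay above the poly(A) range. From 75 nuclear reads, the log2 difference was 2.47 ± 0.33 (SE, adjusted p = 0.000217), or 5.53-fold in RPKM + 1.

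COPT1 (OS01G0770700) had 4.43, 8.86, 0 and 7.27 RPKM in nuclear libraries, against 9.48, 7.79, 5.29 and 8.09 RPKM in poly(A) libraries. The pools overlapped, nuclear library 3 had no read of the gene, and the log2 difference of -0.89 ± 0.66 did not pass (SE, adjusted p = 0.263). Without nuclear library 3 it was -0.16 (adjusted p = 0.603). COPT6 (OS08G0455900) had 1 nuclear read and 4 poly(A) reads, and COPT5 (OS05G0424700) had 0 nuclear reads and 4 poly(A) reads. For COPT5 a count of 0 allows up to 0.564 RPKM over the nuclear libraries (3 reads, counting error only), which is above its poly(A) mean of 0.0442 RPKM, so a difference was not detectable at this depth. COPT2 (OS01G0770800) had no read in any library. Reads that match more than 1 copy of a gene family could have been split or dropped in counting, and how they were treated is not given in the sources used here.

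The YSL and cation efflux families gave few reads or no clear difference. YSL7 (OS02G0116300), a member of the metal-nicotianamine transporter family, had 3.94, 3.17, 4.55 and 1.19 RPKM in nuclear libraries, against 1.91, 1.45, 2.13 and 1.19 RPKM in poly(A) libraries. Only nuclear library 4 fell within the poly(A) range. The log2 difference of 0.59 ± 0.29 did not pass (SE, adjusted p = 0.107), and without nuclear library 4 it was 0.88 (adjusted p = 0.00278). OS04G0352700, described as similar to the metal-nicotianamine transporter YSL2, had 1 nuclear read and 0 poly(A) reads.

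Of the 2 cation efflux genes, OS01G0130000 had 25.2, 13.7, 24.4 and 8.28 RPKM in nuclear libraries, against 17.8, 18.2, 17.9 and 20.0 RPKM in poly(A) libraries. Nuclear values lay on both sides of the tight poly(A) range, with a log2 difference of -0.17 ± 0.32 (SE, adjusted p = 0.668). OS08G0422200 had 0, 1.89, 2.20 and 0 RPKM in nuclear libraries, against 2.99, 2.38, 2.98 and 2.92 RPKM in poly(A) libraries. All nuclear values were below the poly(A) range, but they came from 5 reads. The log2 difference was -1.13 ± 0.41 (SE, adjusted p = 0.0391), with an adjusted p of 0.0916 without nuclear library 1, 0.0859 without nuclear library 4 and 0.0654 to 0.0819 without any 1 of the poly(A) libraries. The call was also lost with a pseudocount of 0.1 (-2.65, adjusted p = 0.0784), no filter (adjusted p = 0.0586), RPKM rescaled to an equal sum (adjusted p = 0.0764) and the length trend taken off (-0.67, adjusted p = 0.181).

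Gene length and difference were related across all genes, so both are given here for the transporters. When all tested genes were divided into 10 equal groups by length, the median log2 difference was -0.20 in the shortest group (median length 505 nt), -0.47 in the next (749 nt) and 0.62 in the longest (3596 nt). The transporters had a median length of 1722 nt, against 1499 nt for all tested genes, and Spearman's rho between length and difference was -0.04 over the 27 genes. COPT3 at 552 nt, COPT7 at 812 nt and OS01G0733001 at 966 nt were higher in nuclear RNA. The groups of genes with such lengths had medians below 0, and the spread of single genes within those groups was not examined. With the trend on length taken off each library, 10 of the 27 transporters were higher and 4 lower, and their median difference was 0.22. Of all 26928 tested genes, 8713 were higher and 7953 lower in that setting, with a median difference of 0.06. The part of length in the individual differences was not tested.

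**Figure D3:**
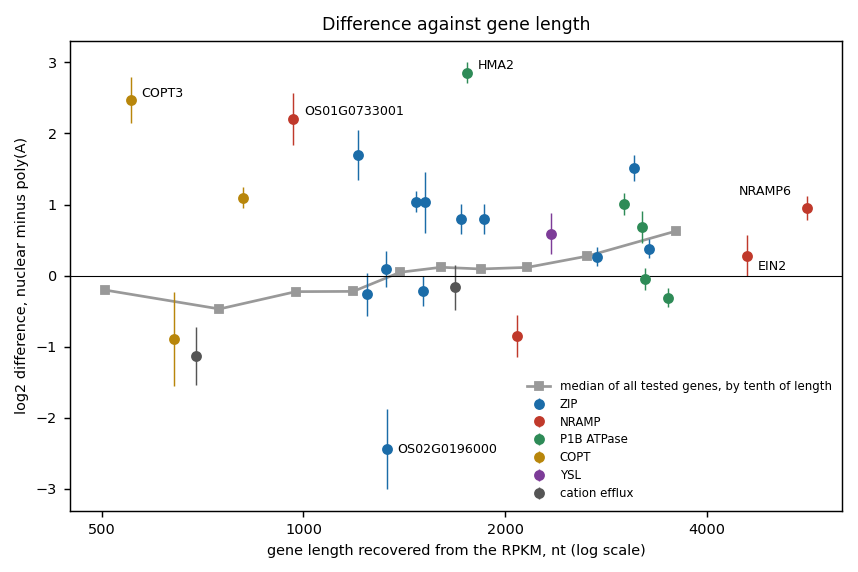
Log2 difference, nuclear minus poly(A), against gene length recovered from the RPKM (log scale, nt) for the 27 tested transporters (points with SE, coloured by family), with grey squares for the median of all tested genes in each of 10 groups by length. The grey line rises from -0.20 at 505 nt to 0.62 at 3596 nt, and COPT3, OS01G0733001 and HMA2 lie far above it.

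Other genes of metal homeostasis were set beside the transporters as lists, described by counts and medians. These lists were written with earlier results of these data known, so their contrast with the transporters is a description and not independent evidence. The lists differed in gene length. The median length of tested genes was 1497.5 nt for chelator synthesis and 568 nt for ferritin and metallothionein. It was 924 nt for the heavy metal-associated domain and 2197 nt for other ion transporters, against 1722 nt for the metal ion transporters and 1499 nt for all tested genes. The part of length in the differences between lists was not tested. Of the 10 genes for chelator synthesis 6 were higher in nuclear RNA (60%, against 33.1% of all tested genes) and 2 were lower (20%, against 30.0%), with a median difference of 0.94. Nicotianamine synthase 1 (NAS1), which makes the chelator carried by YSL proteins, averaged 64.9 ± 25.0 RPKM in nuclear RNA, against 19.3 ± 9.19 RPKM in poly(A) RNA (log2 difference 1.74 ± 0.43, adjusted p = 0.00702). NAS2 averaged 62.6 ± 23.4 RPKM in nuclear RNA, against 22.3 ± 10.7 RPKM in poly(A) RNA (log2 difference 1.50 ± 0.40, adjusted p = 0.0107). Its pools overlapped, with 35.3 RPKM in nuclear library 2 and 36.0 RPKM in poly(A) library 2. The nicotianamine aminotransferase-like genes, whose family acts in phytosiderophore synthesis, went both ways. NAAT5 and NAAT2 were lower in nuclear RNA, with log2 differences of -1.22 ± 0.19 and -0.55 ± 0.13 (adjusted p = 0.000642 and 0.00478). NAAT1 and OS11G0644800 were higher, with log2 differences of 1.14 ± 0.31 and 0.86 ± 0.14 (adjusted p = 0.0123 and 0.000879). NAAT4 was not called (0.31 ± 0.19, adjusted p = 0.182).

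Of the 14 tested ferritin and metallothionein genes, which store or bind metal, 13 were lower in nuclear RNA (92.9%, against 30.0% of all tested genes) and 0 were higher, with a median difference of -2.67. Of the 14, 2 metallothionein genes (MTI3A and MT1G) reached 1 RPKM only in poly(A) RNA and 0 only in nuclear RNA. Both are among the genes counted as lower, the direction that entry through poly(A) RNA favours. FER1 and FER2 encode ferritin, the iron storage protein, and had log2 differences of -1.06 ± 0.23 and -1.70 ± 0.29 (adjusted p = 0.00392 and 0.000894). FER2 averaged 9.45 ± 4.42 RPKM in nuclear RNA, against 30.7 ± 1.03 RPKM in poly(A) RNA. MTI2B, a metallothionein, averaged 2.11 ± 2.45 RPKM in nuclear RNA, against 99.7 ± 18.5 RPKM in poly(A) RNA (log2 difference -5.45 ± 0.60, adjusted p = 7.43e-05). The next largest, in MTI4C, was -4.46 ± 0.65 (adjusted p = 0.000376). The nuclear level of MTI2B came from 10 reads, and 6 of the 11 tested metallothionein genes had 1 to 10 nuclear reads and 1 had 0, so the sizes of their differences are poorly fixed.

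Proteins with a heavy metal-associated domain, a group that includes copper chaperones, had 21 of 49 tested genes lower in nuclear RNA (42.9%, against 30.0% of all tested genes), 6 higher (12.2%, against 33.1%) and 22 not called, with a median difference of -0.67. Of the 49, 4 reached 1 RPKM only in nuclear RNA and 5 only in poly(A) RNA. OS03G0111400 averaged 2.48 ± 4.08 RPKM in nuclear RNA, against 61.4 ± 3.47 RPKM in poly(A) RNA, from 6 nuclear reads (log2 difference -4.84 ± 0.66, adjusted p = 0.000254), and OS10G0506100 had a log2 difference of -4.12 ± 0.44 (adjusted p = 6.15e-05). On the other side, OS03G0152000 averaged 26.7 ± 6.84 RPKM in nuclear RNA, against 7.58 ± 2.47 RPKM in poly(A) RNA (log2 difference 1.70 ± 0.27, adjusted p = 0.000615), and OS07G0298900, which entered the test only through its nuclear level, had a log2 difference of 1.61 ± 0.44 (adjusted p = 0.0112). Transporters of potassium, phosphate, nitrate, ammonium and sulfate had 23 of 61 tested genes higher (37.7%, against 33.1% of all tested genes) and 10 lower (16.4%, against 30.0%), with a median difference of 0.29, and 5 of the 61 reached 1 RPKM only in nuclear RNA. PT14, a phosphate transporter that entered the test only through its nuclear level, averaged 8.35 ± 2.66 RPKM in nuclear RNA, against 0.468 ± 0.160 RPKM in poly(A) RNA (log2 difference 2.62 ± 0.24, adjusted p = 2.41e-05). The nitrate transporter-like gene OS06G0581000 had a difference of 2.30 ± 0.16 (adjusted p = 5.71e-06). NRT1, a low-affinity nitrate transporter, averaged 12.0 ± 2.89 RPKM in nuclear RNA, against 61.5 ± 1.47 RPKM in poly(A) RNA (log2 difference -2.30 ± 0.19, adjusted p = 1.33e-05), and the sulfate transporter SULTR1;3 had a difference of -1.93 ± 0.53 (adjusted p = 0.0118).

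**Figure D4:**
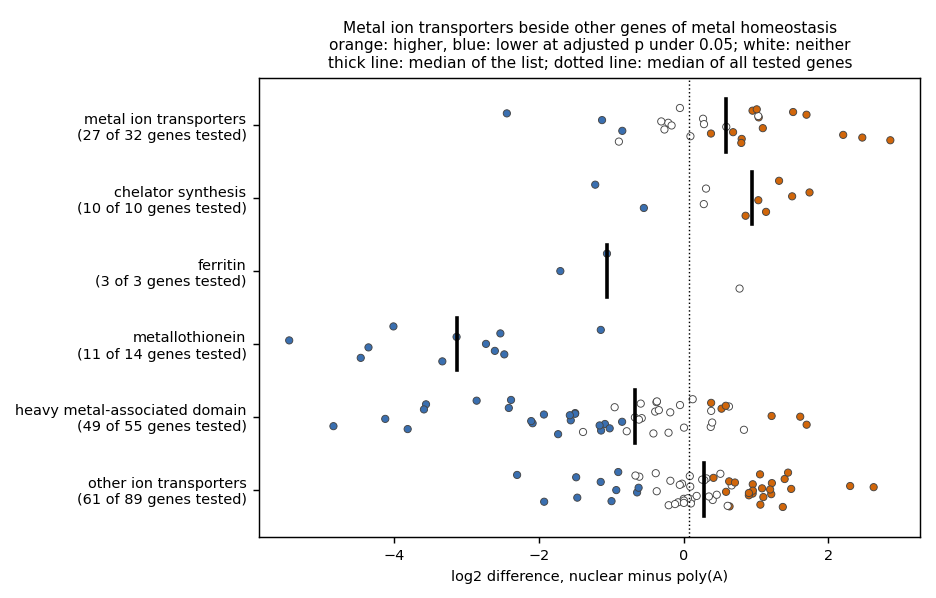
Log2 difference, nuclear minus poly(A), of each tested gene of the metal ion transporters and of 5 other groups of metal homeostasis or ion transport genes, with orange points higher and blue points lower at an adjusted p under 0.05, white points not called, and a thick line at each group's median. The medians run from -3.13 for 11 metallothioneins to 0.94 for 10 genes of chelator synthesis, with the metal ion transporters at 0.59 and all tested genes, the dotted line, at 0.08.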

How the data were processed

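The deposited table gives RPKM per gene for 4 nuclear and 4 poly(A) libraries of root tips, named by pool and number in its column names. Per the submitters' processing notes, the authors used CASAVA 1.8, FastQC and TopHat2 2.1.1 with the genome IRGSP-1.0. No source used here names the counting tool, the strand setting or the annotation release, so a gene and an antisense partner cannot be told apart. Libraries were random primed, per the labels. The shoot base sample was not analysed here, nor were genome positions and sequences.

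The table has 35694 lines and 29 repeated identifiers with equal values, which were kept once. Whole reads, depths and gene lengths were recovered from the steps of the deposited RPKM values. At a tolerance of 0.0001 reads, 100% of genes gave whole reads.

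Pools were compared with limma 3.58.1 (lmFit and eBayes, R 4.3.3) on log2(RPKM + 1), two-sided and without covariates. Genes with a mean of at least 1 RPKM in either pool entered, with Benjamini-Hochberg adjustment over 26928 genes. The fit was also run on simulated reads with the same dispersion in both pools. A spread between libraries that differs by pool, beyond counting error, was not covered by that run. Library numbers were not taken as pairs: same-numbered libraries deviated with correlations of -0.05 to 0.01. The 17 alternatives were 9 settings and 8 fits that each left out 1 library.

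Metal ion transporters were matched on gene descriptions by the rule given at the start, which used no expression values. All other lists were matched on gene descriptions or symbols and were written with earlier results of these data known. Given in every library are, per family, the 3 genes of highest poly(A) level and the 2 largest called differences in each direction. Genes without reads in a pool are given by their reads. Of the other lists, the 2 largest called differences each way are given as means or differences, not by library.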

Additional observations from a re-analysis of the deposited data

Results flagged for a closer look

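Among 54 groups of 4 libraries, 1 held a library far from the other 3. The cation efflux gene OS08G0422200 had 2.38 RPKM in poly(A) library 2, against 2.92 to 2.99 RPKM in the other poly(A) libraries. The gap made up 0.880 of the group's range, above Dixon's critical value for a group of 4. Chance passes that value in about 1 of 20 groups, so 1 flag among 54 groups is no more than chance would give. Without that library the gene's log2 difference was -1.18 (adjusted p = 0.0654), against -1.13 with it (adjusted p = 0.0391). The call was also lost without poly(A) library 1, 3 or 4 (adjusted p = 0.0816 to 0.0819), so its loss was not particular to library 2.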

How the results depend on the processing

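The low depth of the nuclear libraries limits the transporters with few reads, and p-values measure the spread between 4 libraries a pool. Of the 16 called transporters 11 kept their call and direction in all 17 alternatives. Between 10 and 16 transporters were higher in nuclear RNA under the alternatives run, against 13 as reported. The number lower was 3 as reported, 1 with RPKM rescaled to an equal sum, 2 with a pseudocount of 0.1, 4 with median centring, the length trend taken off or voom, and 1 to 3 without single libraries. It was 1 without nuclear library 4 and without any 1 of the poly(A) libraries. Of all tested genes, 8909 were higher and 8069 lower as reported. Without any 1 of the poly(A) libraries, 7874 to 7992 of all tested genes were higher and 7020 to 7084 lower. Without nuclear library 4 the counts over all tested genes were 9609 and 8371. Over all alternatives they were 7652 to 10323 higher and 6509 to 9920 lower, of 20300 to 33191 genes tested. The median of all tested genes, 0.08 as reported, was 0.29 after rescaling, -0.08 after median centring and -0.12 with voom on recovered reads. The median difference of the transporters, 0.59, was 0.72 with a pseudocount of 0.1, 0.28 with no filter, where 31 genes were tested, and 0.80 at a mean RPKM of at least 5. It was 0.77 after rescaling, 0.43 with median centring, 0.39 with quantile normalization, 0.22 with the length trend taken off and 0.43 with voom. Leaving out single libraries gave 0.43 to 0.67. With the replicate number as a block, 11 transporters were higher and 3 lower, beside 8391 and 7628 of all 26928 tested genes. The block took OS05G0316100 to an adjusted p of 0.0999 and HMA6 to 0.0526 and changed no other call.

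Some uncalled differences changed sign. ZIP1 was at -0.0624 with median centring, -0.179 with quantile normalization and -0.122 with voom, and between -0.0898 (without nuclear library 3) and 0.317 without single libraries; without nuclear library 4 it was -0.0088. OS01G0130000 was at 0.081 after rescaling, and between -0.364 and 0.136 (without nuclear library 4) without single libraries. HMA5 was at 0.165 after rescaling and -0.138 to 0.0603 (without nuclear library 1) without single libraries, and ZIP8 at -0.499 to 0.0016 (without nuclear library 4). With the length trend taken off, EIN2 was at -0.452, OS08G0467400 at -0.0105 and the called gene OS05G0316100 at -0.0534 (adjusted p = 0.741), while HMA5 was at -0.471 (adjusted p = 0.0253). HMA6 lost its call there (0.27, adjusted p = 0.331) and with median centring (adjusted p = 0.0819). OS05G0316100 also lost its call with median centring, quantile normalization and voom (adjusted p = 0.0591 to 0.232). The cause of these shifts was not tested.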
